A study of Mus musculus with 6 samples.

Results

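In mouse mammary tumour cells kept for 7 months under hydrogen peroxide (H2O2), 93 genes stood on opposite sides of the untreated control in the lines kept under the 80 µM and 150 µM doses. They are 0.814% of the 11428 genes whose mean reached 1 CPM (the reads on a gene after each library is scaled to a total of 1000000 assigned reads), in a table of 24454 gene numbers. The genes were chosen by their measured values. The mean of log2(CPM + 0.5) was taken in each group, and a gene was kept where the difference from the control exceeded 0.5 in both treated lines with opposite signs. Higher in the 80 µM line and lower in the 150 µM line were 41 genes. The reverse held for 52 genes. Every level and difference of these genes below is therefore a description, and the counts of limma calls among them are given only beside the share over all tested genes.

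All cells are of the line MTflEcad, from a mammary tumour of MMTV-Neu mice, a strain in which a mammary tumour virus promoter drives the receptor gene Neu. PBS names the untreated control line (0 µM), I80 the line given 80 µM H2O2 each day and DI150 the line given 150 µM each day, with 2 libraries of total RNA per group. Each dose is 1 line, so dose and line cannot be told apart. The DI150 libraries are called replicates 1 and 3, as the deposited table numbers them, while the labels number them 1 and 2.

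Hydrogen peroxide is made by mitochondria and oxidases and oxidises thiols of signalling proteins and enzymes. Cells remove it with peroxiredoxins, catalase and glutathione peroxidases, and limit its reaction with iron by binding the metal in transport and storage proteins. In epithelial tumours, exposure also alters adhesion, matrix turnover and growth factor signalling, among the roles under which the genes are ordered here. The grouping by role was made by hand after the values were seen, and tallies of the gene lists stand beside it.

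The libraries held 21017849 to 26608715 assigned reads, so that 1 read is worth 0.0376 to 0.0476 CPM, and 13905 to 15015 genes had a read. The PBS libraries differed most from each other (chi-square per degree of freedom 23.3, against 4.39 for I80 and 9.42 for DI150). The epithelial genes Cdh1, Epcam, Krt8 and Krt18 were read at 374 CPM or more in all 6 libraries. Cdh1, Krt8 and Krt18 were lower in both treated lines than in PBS, and Epcam was higher. The keratin gene Krt14 read 1728 and 1674 CPM (PBS), 0.273 and 0.701 CPM (I80) and 0.0476 and 0.0763 CPM (DI150). The luminal list summed to 9663 and 9552 CPM (PBS), 6300 and 6411 CPM (I80) and 5663 and 5642 CPM (DI150). The basal list summed to 5253 and 5710.5 CPM (PBS), 2581 and 2500 CPM (I80) and 2601 and 2390 CPM (DI150). The leukocyte gene Ptprc reached at most 0.263 CPM and the endothelial gene Pecam1 at most 0.202 CPM. No oppositely moving gene is on the luminal, basal, fibroblast, macrophage, lymphocyte, endothelial, adipocyte or muscle marker lists. In that order these lists had 23, 18, 3, 3, 0, 2, 1 and 3 tested genes. Members are 0.814% of all tested genes, so lists of this size could hardly hold one, and nothing is read from the absence. The macrophage list (14 genes, 5 at 0 throughout, among them Adgre1 and C1qa) summed to 86.7 and 103 CPM (PBS), 27.2 and 22.7 CPM (I80) and 74.7 and 63.0 CPM (DI150). The endothelial list (10 genes, with Kdr, Emcn and Cldn5 at 0 throughout) summed to 2.33 and 3.19 CPM (PBS), 7.14 and 8.08 CPM (I80) and 3.43 and 3.28 CPM (DI150). The adipocyte list (9 genes, 5 at 0 throughout, among them Adipoq and Pparg) summed to at most 0.162 CPM in PBS and I80 and to 11.8 and 13.7 CPM in DI150. The part of these sums in the members' values was not tested. Markers of neural cells include 1, Mbp, and that list summed to 306 and 371 CPM (PBS), 679 and 662 CPM (I80) and 856 and 807 CPM (DI150); its part in the Mbp values was not tested. In bulk RNA, fewer cells with a transcript and less of it per cell cannot be told apart.

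The opposite sides were mostly well separated. In 85 of the 93 genes (91.4%), both PBS libraries lay between those of I80 and DI150 with no overlap of the groups, against 8.45% of all tested genes. The choice of the genes used these same values. The 8 exceptions were Slc17a9, Prss32, Adgrf4, Bcl2l14, Pyroxd2, Ccl20, Nlrp10 and Pard6g, in each of which a PBS library overlapped a treated group. By limma with Benjamini-Hochberg adjustment over all tested genes at a threshold of 0.05, I80 against PBS called 78 of the 93 (66.4% of all tested genes), DI150 against PBS 80 (68.7%) and DI150 against I80 all 93 (43.8%). The choice of genes used the same contrasts, and nothing is read from these counts.

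The sizes were moderate for most of the genes. Among the 41 higher in I80, the median log2 difference from PBS was 0.86 in I80 (0.50 to 2.64) and -0.95 in DI150 (-3.11 to -0.53). The 52 lower in I80 had medians of -0.93 in I80 (-6.36 to -0.51) and 0.90 in DI150 (0.50 to 3.72). All tested genes had medians of -0.002 and -0.03. In 20 genes the smaller of the paired differences was still above 1, 7 of them higher in I80 and 13 lower. Another 32 genes had a smaller difference between 0.5 and 0.6, close to the limit. Just inside it were Lrrc61 (0.50 in I80) and Lyrm7 (0.51), Fhod3 (0.50 in DI150) and Mir678 (0.51). Just outside were Septin6 (-0.49 in DI150), Focad (-0.47), Slc44a3 (-0.48 in I80) and H2bc4 (0.47 in DI150). Levels were low, with a median mean of 7.83 CPM against 39.8 CPM over all tested genes, and 31 of the 93 (33.3%) were under 5 CPM, against 11.8% of tested genes. The plot of changes in both lines places the members against all tested genes.

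**Figure D1:**
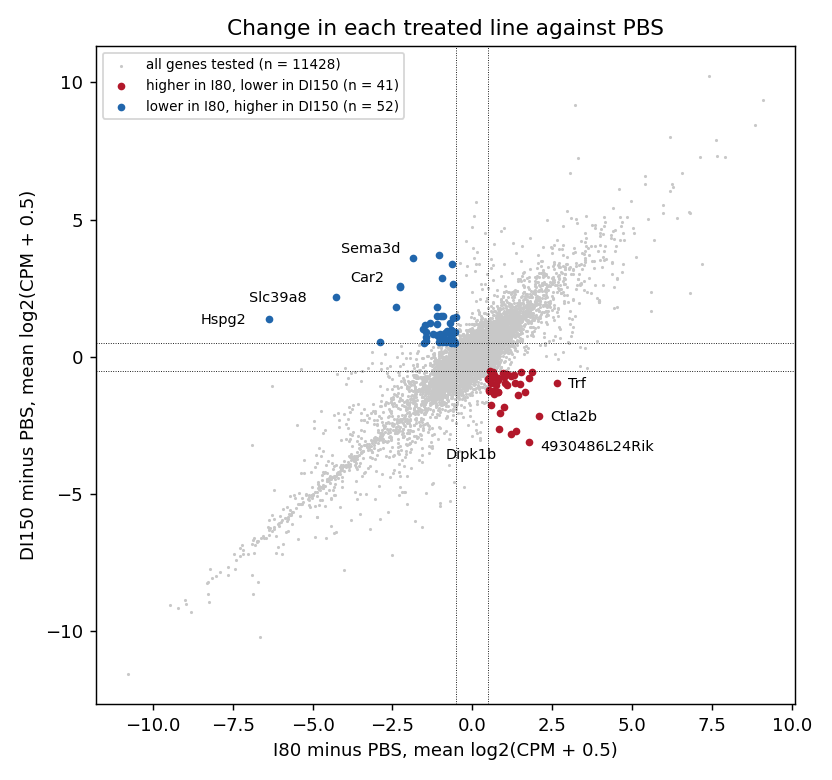
Difference in mean log2(CPM + 0.5) between I80 and PBS (horizontal axis) and between DI150 and PBS (vertical axis), 1 point per gene with at least 1 CPM; dotted lines mark the limits of 0.5 by which the coloured genes were chosen. The 41 red genes lie lower right and the 52 blue genes upper left, away from the diagonal where most of the 11428 grey genes lie, with Hspg2 farthest left among the coloured genes.

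The PBS libraries set the precision of these differences. Within PBS, the median SD of log2 values was 0.22 for the chosen genes and 0.11 for all tested genes, against 0.11 and 0.05 in I80 and 0.11 and 0.07 in DI150. PBS replicate 2 was the higher one in 70 of the 93 (75.3%, against 56.9% of tested genes), 35 in each direction, and the PBS libraries were more than 1 log2 unit apart in 13 genes (14%, against 1.49%). Without PBS replicate 1, 69 of the 93 still met the rule, and without PBS replicate 2, 64 did. Some genes described below then had a smaller difference under 0.5 either way. Among them are Nebl (0.25 and 0.29), Azin2 (0.23 and 0.22) and Sesn3 (0.36 and 0.32), without PBS replicate 1 and replicate 2 in turn. The part of the PBS spread in the choice of genes was not tested.

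A cluster of neighbouring genes on chromosome 13 gave the widest swings among the genes higher in I80. Ctla2a and Ctla2b encode small proteins that resemble the propeptide of cysteine proteases and can inhibit such enzymes. Ctla2b read 2.59 and 3.32 CPM (PBS), 15.7 and 12.7 CPM (I80) and 0.238 and 0.305 CPM (DI150). Its log2 difference from PBS was 2.09 ± 0.18 in I80 and -2.16 ± 0.18 in DI150 (± SE from limma, 2 libraries per group, here and below). This SE pools the spread of all groups, although the median spread of the chosen genes was larger in PBS than in either treated line. The neighbour Ctla2a read 3.19 and 5.82 CPM (PBS), 10.7 and 13.1 CPM (I80) and 0.333 and 0.153 CPM (DI150). Next to both lies 4930486L24Rik, which read 4.51 and 5.46 CPM (PBS), 17.2 and 19.5 CPM (I80) and 0.0476 and 0.229 CPM (DI150), a difference of 1.79 ± 0.19 in I80 and -3.11 ± 0.19 in DI150. In all 3 genes the PBS libraries sat in the gap between high I80 and nearly silent DI150. No tested gene lies between them, and the gap is 30.9 kb between 4930486L24Rik and Ctla2b and 36.2 kb between Ctla2b and Ctla2a. The Ctla2 copies are alike in sequence and their counting cannot be separated fully, although the ratio of Ctla2a to Ctla2b ran from 0.50 to 1.76 across libraries.

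The sequences before the starts of both Ctla2 genes are shown because these neighbours moved together. Ctla2b was taken as a leading gene, and Ctla2a was added after its values were seen. They are the 250 bases before the transcript start in RefSeq (GRCm38.p6), minus strand, chr13:60897448-60897697 for Ctla2b and chr13:60936626-60936875 for Ctla2a. The Ctla2b start lies inside the annotated span of its gene. Capitals mark TGACNNNGC, the core of the antioxidant response element bound by NRF2, and TGANTCA, the AP-1 motif, searched on both strands.
Ctla2b: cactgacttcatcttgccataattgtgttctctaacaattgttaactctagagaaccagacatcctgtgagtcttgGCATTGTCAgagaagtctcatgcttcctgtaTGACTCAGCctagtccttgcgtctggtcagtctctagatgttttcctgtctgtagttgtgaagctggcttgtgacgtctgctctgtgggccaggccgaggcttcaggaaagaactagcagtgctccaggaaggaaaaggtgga
Ctla2a: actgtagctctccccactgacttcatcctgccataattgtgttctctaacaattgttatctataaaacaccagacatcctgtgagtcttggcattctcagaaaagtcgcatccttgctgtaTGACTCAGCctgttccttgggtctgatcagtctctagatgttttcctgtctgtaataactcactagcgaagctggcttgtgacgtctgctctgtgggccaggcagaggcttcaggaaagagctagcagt
TGACNNNGC occurs 2 times before Ctla2b and 1 time before Ctla2a. The run TGACTCAGC, present in both, holds the overlapping forms of the 2 motifs. Of all 11681 promoters of tested genes, 11.8% hold TGACNNNGC and 4.44% hold TGANTCA in the 250 bases before the start. The pair of sequences is identical at 208 of 272 aligned positions (76.5%). A match of letters is a description and not a bound site.

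Matrix and secreted proteins held the largest single difference from PBS. Hspg2 encodes perlecan, the heparan sulfate proteoglycan of basement membranes. It read 271 and 293 CPM (PBS), 2.85 and 3.05 CPM (I80) and 833 and 657 CPM (DI150), a log2 difference of -6.36 ± 0.11 in I80 and 1.39 ± 0.11 in DI150. Hardly any perlecan RNA was left in I80, while both DI150 libraries exceeded both PBS libraries. Mgp, matrix Gla protein, which binds mineral and matrix growth factors, read 1.05 and 3.64 CPM (PBS), 0.975 and 0.618 CPM (I80) and 7.04 and 6.296 CPM (DI150). Its PBS libraries were far apart, further than the I80 mean lay from the PBS mean. Ltbp4, which holds latent TGF-beta in the matrix, read 9.73 and 10.2 CPM (PBS), 3.67 and 3.09 CPM (I80) and 17.5 and 16.4 CPM (DI150). Thsd4, a secreted protein that binds fibrillin microfibrils, read 157 and 193 CPM (PBS), 104 and 94.8 CPM (I80) and 341 and 331 CPM (DI150). Gask1b, a Golgi-associated kinase family protein, read 2.97 and 4.003 CPM (PBS), 1.72 and 1.401 CPM (I80) and 27.5 and 29.5 CPM (DI150). The groups did not overlap in any of these genes. Of 20 tested genes on a list of other matrix proteins, Ltbp4 and Mgp were members. On that list 3 genes rose and 14 fell in I80, while 6 rose and 13 fell in DI150. For lists, here and below, genes that rose or fell are limma calls at the threshold above. Over all tested genes 32.3% were called higher and 34.2% lower in I80, and 32.7% and 36.1% in DI150.

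Extracellular proteases split between the directions. Adamts4, an aggrecanase that cleaves proteoglycans, read 7.97 and 17.7 CPM (PBS), 28.1 and 24.2 CPM (I80) and 5.38 and 5.91 CPM (DI150). Pcsk6, the proprotein convertase PACE4 that activates TGF-beta family ligands and proteases, read 121 and 133 CPM (PBS), 212 and 194 CPM (I80) and 46.4 and 53.4 CPM (DI150). Both were highest in I80 and lowest in DI150. Mmp2, the gelatinase MMP-2, went the other way and read 3.31 and 2.83 CPM (PBS), 1.87 and 1.69 CPM (I80) and 40.7 and 32.4 CPM (DI150), a difference of -0.64 ± 0.16 in I80 and 3.37 ± 0.16 in DI150. The protease inhibitors Slpi and Serpinb11 were higher in I80, as was the serine protease gene Prss32, all at a few CPM. Slpi, the secretory leukocyte protease inhibitor, read 1.01 and 1.62 CPM (PBS), 2.73 and 3.63 CPM (I80) and 0.476 and 0.382 CPM (DI150). Of the proteases and inhibitors on a list of 71 tested genes, 5 are members (Adamts4, Prss32, Serpinb11 and Slpi higher in I80, Mmp2 lower). On that list 25 genes rose and 36 fell in I80, and 21 rose and 39 fell in DI150. Among all tested genes 32.3% rose and 34.2% fell in I80, and 32.7% rose and 36.1% fell in DI150. Its median log2 differences were -0.52 in I80 and -0.95 in DI150, against -0.002 and -0.03 over all tested genes.

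Ligands came in both directions. Edn1 encodes endothelin-1, a peptide that acts on endothelin receptors in an autocrine or paracrine way. It read 11.01 and 10.5 CPM (PBS), 22.2 and 17.97 CPM (I80) and 2.43 and 2.02 CPM (DI150), a difference of 0.86 ± 0.15 in I80 and -2.05 ± 0.15 in DI150. Ctf1, cardiotrophin-1, a ligand of the interleukin-6 family that signals through gp130, read 7.78 and 9.75 CPM (PBS), 14.5 and 11.9 CPM (I80) and 5.14 and 4.31 CPM (DI150). Both ligand genes were highest in I80 and lowest in DI150, with no overlap of the groups. Sema3d encodes a secreted semaphorin that guides migrating cells and vessels. It read 1.503 and 1.94 CPM (PBS), 0 and 0.247 CPM (I80) and 25.8 and 26.2 CPM (DI150), a difference of -1.86 ± 0.22 in I80 and 3.58 ± 0.22 in DI150, and I80 replicate 1 had no read of it. Ccl20, the ligand of CCR6, is an exception to the separation, since its values of 1.62 and 3.48 CPM (PBS), 1.79 and 1.03 CPM (I80) and 4.996 and 2.71 CPM (DI150) overlap between groups.

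Receptors and membrane proteins followed. Ptpru, a receptor-type tyrosine phosphatase that binds adhesion partners, read 5.299 and 6.43 CPM (PBS), 16.3 and 18.2 CPM (I80) and 2.52 and 2.86 CPM (DI150), a difference of 1.48 ± 0.15 in I80 and -0.99 ± 0.15 in DI150. Tyro3, a receptor tyrosine kinase of the TAM family that binds GAS6 and protein S, read 16.7 and 16.8 CPM (PBS), 7.101 and 7.996 CPM (I80) and 29.2 and 29.3 CPM (DI150). Il1rl2, the receptor of interleukin-36, read 1.73 and 2.75 CPM (PBS), 1.21 and 1.36 CPM (I80) and 17.2 and 15.8 CPM (DI150). Il1rl2 stood far above PBS in DI150 and just below it in I80. Lrp1, an endocytic receptor for proteases and lipoproteins, read 15.6 and 32.1 CPM (PBS), 13.5 and 14.1 CPM (I80) and 42.8 and 45.6 CPM (DI150). The I80 libraries lay just under the lower PBS library of Lrp1.

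Tetraspanins, which organise receptors and integrins in membrane domains and vesicles, gave a pair of genes in the same direction. Cd63, a marker of late endosomes and exosomes, read 67.5 and 64.7 CPM (PBS), 30.2 and 30.2 CPM (I80) and 167 and 140.0 CPM (DI150), a difference of -1.12 ± 0.09 in I80 and 1.205 ± 0.09 in DI150. Tspan5, which escorts the protease ADAM10, read 27.2 and 25.1 CPM (PBS), 13.2 and 12.98 CPM (I80) and 46.8 and 39.6 CPM (DI150). In both genes the I80 libraries lay lowest and the DI150 libraries highest. The list of tetraspanin and claudin-like genes has 25 tested genes and 2 members. On it limma called 12 rising and 7 falling in I80 and 16 rising and 8 falling in DI150. The shares over all tested genes were 32.3% and 34.2% in I80 and 32.7% and 36.1% in DI150. The median log2 differences of the list were 0.10 in I80 and 0.71 in DI150. Other receptor, adhesion and G protein genes under the rule were Adgrf4, Tas1r1, Lrrc61 and Gng11 (a G protein gamma subunit), higher in I80, and Pcdh12, higher in DI150.

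Genes of metal handling took both directions. Trf encodes transferrin, the carrier of iron in serum, and read 1.58 and 3.72 CPM (PBS), 18.7 and 17.2 CPM (I80) and 1.09 and 0.992 CPM (DI150), a difference of 2.64 ± 0.30 in I80 and -0.94 ± 0.30 in DI150. Mt1, a metallothionein that binds zinc and copper, read 29.7 and 30.7 CPM (PBS), 58.4 and 69.9 CPM (I80) and 19.3 and 19.8 CPM (DI150). Both were highest in I80. Slc39a8, the importer ZIP8 for zinc, manganese and iron, went the other way and read 13.3 and 10.4 CPM (PBS), 0.156 and 0.124 CPM (I80) and 51.7 and 60.2 CPM (DI150), a difference of -4.26 ± 0.16 in I80 and 2.195 ± 0.16 in DI150. Steap1, a ferrireductase family protein of the plasma membrane, read 1.35 and 0.8896 CPM (PBS), 0.234 and 0.247 CPM (I80) and 4.42 and 3.51 CPM (DI150). The list of iron, zinc and copper genes has 22 tested genes, of which Mt1, Trf and Steap1 are members, while Slc39a8 was listed under solute carriers. On it 9 rose and 9 fell in I80, and 9 rose and 7 fell in DI150, with median log2 differences of 0.08 and -0.13. Among 191 tested solute carriers 2 were members, Slc39a8 and Slc17a9. On the solute carrier list 71 rose and 61 fell in I80, and 83 rose and 55 fell in DI150. Over all tested genes limma called 32.3% higher and 34.2% lower in I80, and 32.7% and 36.1% in DI150.

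Car2, carbonic anhydrase 2, which turns carbon dioxide into bicarbonate and sets intracellular pH, had the second largest smaller difference among the genes lower in I80. It read 21.9 and 26.1 CPM (PBS), 5.11 and 4.204 CPM (I80) and 150.4 and 142 CPM (DI150), a difference of -2.25 ± 0.13 in I80 and 2.59 ± 0.13 in DI150. Both I80 libraries lay below PBS, and both DI150 libraries above it, with no overlap. Of 30 tested genes for peroxide and superoxide removal, 1 was a member (3.33%, against 0.814% over all tested genes), Sesn3, a sestrin that restrains growth signalling through mTORC1. Sesn3 read 17.9 and 32.8 CPM (PBS), 41.4 and 42.99 CPM (I80) and 15.3 and 13.1 CPM (DI150). On that list limma called 19 genes higher and 3 lower in I80, and 17 higher and 5 lower in DI150. The shares over all tested genes were 32.3% and 34.2% in I80 and 32.7% and 36.1% in DI150. Lists of 41 tested NRF2 targets, 24 glutathione genes, 28 aldehyde, aldo-keto and carbonyl reducing enzymes and 24 ABC transporters held 0 members each. With so few tested genes, neither 1 nor 0 members is read as a result.

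Regulators of small GTPases gave an opposed pair within a family, Arhgdib and Arhgdig, whose proteins hold such GTPases inactive in the cytosol. The list of small GTPase regulators, which does not include this family, has 157 tested genes and 0 members. Arhgdib read 11.2 and 14.1 CPM (PBS), 1.83 and 2.14 CPM (I80) and 48.9 and 41.9 CPM (DI150), a difference of -2.397 ± 0.15 in I80 and 1.81 ± 0.15 in DI150. Arhgdig read 3.04 and 3.11 CPM (PBS), 6.24 and 7.13 CPM (I80) and 1.52 and 1.83 CPM (DI150), a difference of 1.003 ± 0.16 in I80 and -0.72 ± 0.16 in DI150. The third family gene, Arhgdia, no member and chosen after its values were seen, differed by -0.47 in I80 and -0.49 in DI150 and fell in both by limma (adjusted p 0.00266 and 0.00209). Arhgdib lies 47.8 kb from Mgp on chromosome 6 with no tested gene between them, and both were highest in DI150. Fgd1, an exchange factor for Cdc42, read 24.5 and 26.8 CPM (PBS), 65.003 and 61.7 CPM (I80) and 15.6 and 16.3 CPM (DI150).

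Some members act in the cytoskeleton or the cilium. The list of cytoskeleton and motor genes has 98 tested genes and 1 member, Myo7a (1.02%, against 0.814% over all tested genes). On it limma called 26 rising and 45 falling in I80 and 24 rising and 51 falling in DI150. The shares over all tested genes were 32.3% and 34.2% in I80 and 32.7% and 36.1% in DI150. Spag17 encodes a protein of the central apparatus of motile cilia. It read 1.32 and 2.63 CPM (PBS), 0 and 0 CPM (I80) and 12.6 and 14.6 CPM (DI150), with 0 reads in both I80 libraries. Against a floor of 3 reads per library, PBS was at least 16.4-fold higher than I80 and DI150 at least 113-fold higher. The sequence before its start (RefSeq, GRCm38.p6, plus strand, chr3:99885167-99885416, 250 bases) is shown because this gene leads the group lower in I80, and it holds no TGACNNNGC or TGANTCA, so nothing in it is in capitals.
Spag17: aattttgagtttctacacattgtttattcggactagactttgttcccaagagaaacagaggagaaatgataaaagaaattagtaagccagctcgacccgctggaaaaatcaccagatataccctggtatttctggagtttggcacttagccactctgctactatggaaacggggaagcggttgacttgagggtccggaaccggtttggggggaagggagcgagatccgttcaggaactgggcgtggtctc
Ttll7, a tubulin polyglutamylase, had 1 read in I80 against 29 in PBS and 643 in DI150. That is a ratio of PBS to I80 of 28.2 (exact 95% interval 4.67 to 1151, counting error only) and of DI150 to I80 of 679 (121 to 26873). The intraflagellar transport genes Ttc30a1 and Hspb11 were higher in I80. Hspb11 read 8.08 and 9.83 CPM (PBS), 14.6 and 13.8 CPM (I80) and 6.23 and 5.72 CPM (DI150). Myo7a, an unconventional myosin of stereocilia, read 5.9003 and 6.35 CPM (PBS), 11.1 and 11.7 CPM (I80) and 0.523 and 0.611 CPM (DI150), a difference of 0.84 ± 0.14 in I80 and -2.63 ± 0.14 in DI150. Nebl, which binds actin at sarcomere Z discs and in focal adhesions, read 2.97 and 6.91 CPM (PBS), 7.73 and 8.99 CPM (I80) and 2.85 and 1.91 CPM (DI150). Sptb, beta-spectrin of the membrane skeleton, read 4.74 and 6.87 CPM (PBS), 2.65 and 2.102 CPM (I80) and 21.5 and 21.7 CPM (DI150), a difference of -1.12 ± 0.19 in I80 and 1.83 ± 0.19 in DI150. Among these, Myo7a and Nebl were highest in I80 and Sptb in DI150.

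**Figure D2:**
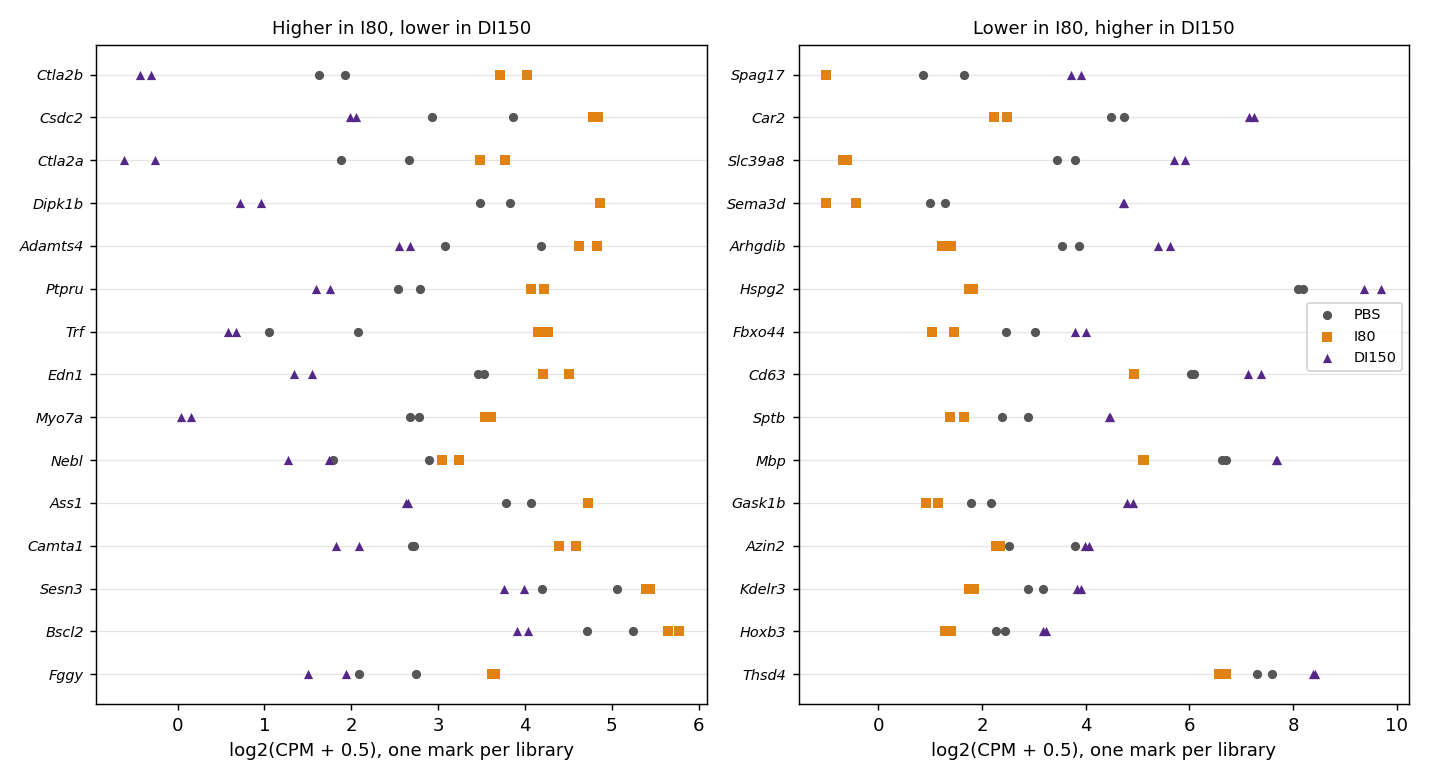
Level of the 15 leading genes of each direction on a log2(CPM + 0.5) scale, with 1 mark per library (circles PBS, squares I80, triangles DI150) and genes ordered by the smaller of their paired differences. In every row shown the PBS marks lie between the marks of both treated lines; the PBS marks of Azin2 and Nebl are among the farthest apart.

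Some members act in the nucleus or on RNA. The lists hold 1 member among 38 tested homeobox genes (Hoxb3) and 1 among 39 DNA methylation and chromatin regulators (Tet1). They hold 0 among the 353 tested genes of the zinc finger list and 0 among 122 other developmental transcription factors. Plagl1 and Egr1, described below, were listed elsewhere, under imprinted genes and immediate early genes, so these counts do not cover whole families. Csdc2, an RNA-binding cold shock domain protein, read 7.14 and 14.03 CPM (PBS), 26.96 and 28.1 CPM (I80) and 3.66 and 3.47 CPM (DI150), a difference of 1.41 ± 0.26 in I80 and -1.37 ± 0.26 in DI150. Its PBS libraries differed by nearly 1 log2 unit. Camta1, a calmodulin-binding transcription activator, read 6.09 and 5.98 CPM (PBS), 23.6 and 20.4 CPM (I80) and 3.05 and 3.74 CPM (DI150). Tle5, a short Groucho family co-repressor formerly named Aes, read 267 and 292 CPM (PBS), 172 and 176 CPM (I80) and 457 and 482 CPM (DI150). Hoxb3, a homeobox gene, read 4.36 and 4.93 CPM (PBS), 1.95 and 2.14 CPM (I80) and 8.52 and 8.93 CPM (DI150). Tet1, an enzyme that oxidises methylated cytosine, read 1.39 and 2.59 CPM (PBS), 3.43 and 2.803 CPM (I80) and 0.0476 and 0.4198 CPM (DI150). Camta1 and Tet1 were highest in I80, and Tle5 and Hoxb3 in DI150. Plagl1, an imprinted zinc finger gene, had 2 reads in I80, 44 in PBS and 134 in DI150, a ratio of PBS to I80 of 21.4 (exact 95% interval 5.58 to 182, counting error only). Egr1, an immediate early transcription factor, read 63.6 and 52.3 CPM (PBS), 44.7 and 29.5 CPM (I80) and 90.97 and 74.5 CPM (DI150). Ndc1, a transmembrane nucleoporin, read 96.7 and 78.8 CPM (PBS), 129 and 126 CPM (I80) and 62.2 and 58.2 CPM (DI150). Bahcc1, Usp44 and the histone gene H1f2 were highest in DI150.

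Some members are metabolic enzymes or act on lipids. Ass1, argininosuccinate synthase, which makes the precursor of arginine, read 13.3 and 16.3 CPM (PBS), 26.1 and 25.97 CPM (I80) and 5.805 and 5.69 CPM (DI150), a difference of 0.800 ± 0.13 in I80 and -1.29 ± 0.13 in DI150. The pseudogene Gm5424 tracked it at 0.97 to 0.987 times its CPM in every library, so the entries may hold the same reads. Both stand in the counts given here, as do Mnd1 and Mnd1-ps. Without Gm5424 and Mnd1-ps the members number 91, with 40 higher and 51 lower in I80 and 9 on chromosome 10. Bscl2, seipin of lipid droplet formation, read 25.8 and 37.4 CPM (PBS), 49.7 and 54.4 CPM (I80) and 14.5 and 15.9 CPM (DI150). Ggta1, which adds alpha-galactose to glycans, read 68.96 and 65.4 CPM (PBS), 113 and 99.4 CPM (I80) and 27.5 and 28.6 CPM (DI150). Fads2, the fatty acid desaturase, read 72.5 and 66.3 CPM (PBS), 46.002 and 41.8 CPM (I80) and 141 and 132 CPM (DI150). The I80 libraries were highest for Ass1, Bscl2 and Ggta1 and lowest for Fads2. Azin2, an inhibitor of antizyme in polyamine synthesis, read 5.26 and 13.4 CPM (PBS), 4.57 and 4.33 CPM (I80) and 16.3 and 15.3 CPM (DI150). Gls2, the mitochondrial glutaminase, read 6.76 and 4.69 CPM (PBS), 3.43 and 3.87 CPM (I80) and 8.28 and 8.89 CPM (DI150).

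Genes of other roles were among the leading members. Mbp, myelin basic protein, whose gene also gives Golli transcripts outside myelin, read 98.8 and 104 CPM (PBS), 34.4 and 33.96 CPM (I80) and 203 and 205 CPM (DI150), a difference of -1.55 ± 0.06 in I80 and 1.01 ± 0.06 in DI150. Kdelr3, a receptor that returns chaperones to the endoplasmic reticulum, read 6.88 and 8.53 CPM (PBS), 2.85 and 3.09 CPM (I80) and 14.6 and 13.7 CPM (DI150). Fbxo44, an F-box protein of a ubiquitin ligase, read 4.998 and 7.602 CPM (PBS), 1.56 and 2.27 CPM (I80) and 13.3 and 15.5 CPM (DI150). Dipk1b, a kinase family protein of the secretory pathway, read 13.7 and 10.7 CPM (PBS), 28.6 and 28.6 CPM (I80) and 1.14 and 1.45 CPM (DI150), a difference of 1.21 ± 0.16 in I80 and -2.81 ± 0.16 in DI150. Dipk1b was highest in I80, and Mbp, Kdelr3 and Fbxo44 were highest in DI150. Nlrp10, an innate immune protein of the NLR family, read 3.46 and 20.9 CPM (PBS), 0.897 and 0.618 CPM (I80) and 14.1 and 11.5 CPM (DI150). The PBS libraries of Nlrp10 were the widest apart of these examples, and the upper one exceeded both DI150 libraries.

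Other members, among them the leading gene Fggy, are named here by direction. Higher in I80 were Fggy, Ap1s2, Rassf10, Nckap5l, Gm49890 and Gm7694. Lower in I80 were Tchh, Stbd1, Fsd1l, Mnd1, Mnd1-ps, Aars2, Pik3cd, Aatk, Chst3, Micu2 and Fam241a. Micu2, a regulator of the mitochondrial calcium uniporter, read 26.1 and 28.8 CPM (PBS), 17.8 and 19.2 CPM (I80) and 50.4 and 53.04 CPM (DI150). Tas1r1, a taste receptor subunit, had 2 reads in DI150, 42 in PBS and 178 in I80. Of the 93 genes 89 were protein coding (95.7%, against 96.7% of tested genes), and the others were the pseudogenes Gm5424 and Mnd1-ps, the long noncoding RNA Gm49890 and Mir678. Mnd1-ps ran at 0.595 to 0.744 times the CPM of Mnd1, with which it may share reads. The spans of 12 members overlap another gene at 1 CPM or more, among them Mir678 within Prmt2 and Spag17 beside Wdr3, and whether strand was used to separate such genes is not stated in the labels or notes used here.

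Applied to 1 library per group, the rule could be read in libraries it had not used. In the libraries numbered 1 it chose 88 genes, 48 higher and 40 lower in I80. In the libraries left out, 79 of these (89.8%) had the same signs in both lines, and 51 (58%) again met the rule. In the other direction it chose 90 genes, of which 78 (86.7%) kept both signs and 52 (57.8%) met the rule in the libraries numbered 1. The median of the smaller difference went from 0.71 to 0.61 and from 0.70 to 0.64. Of these choices 65 and 66 are among the 93. Both differences of a gene share their PBS library within a set.

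**Figure D3:**
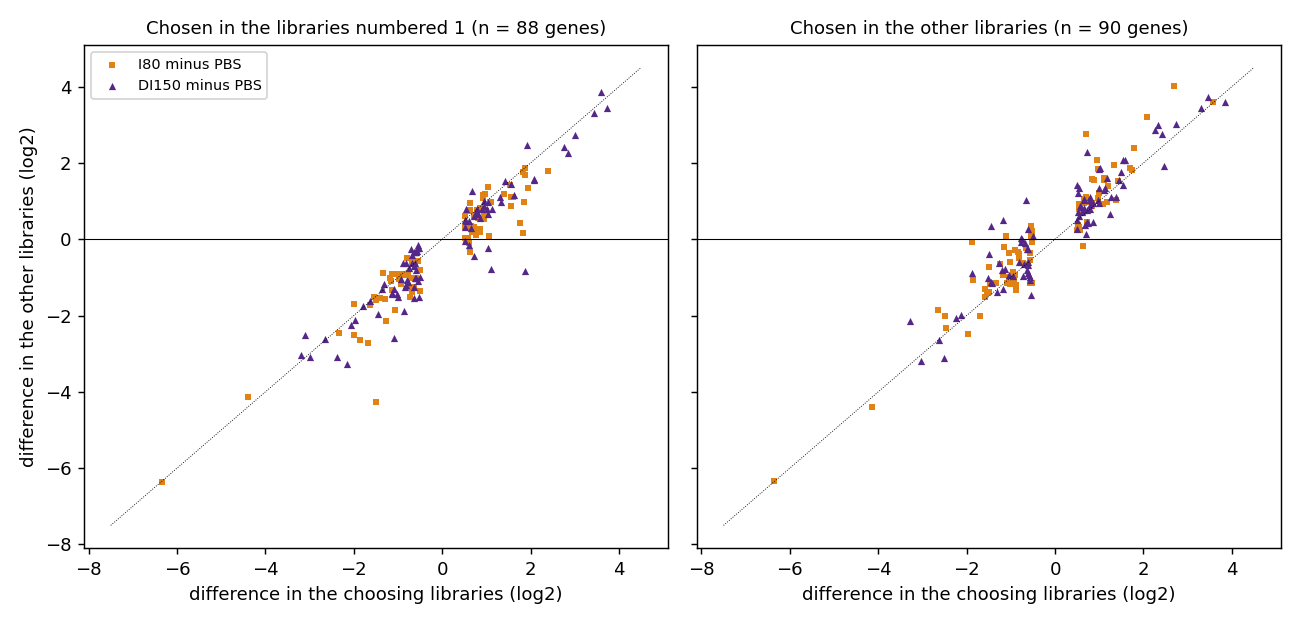
Genes chosen in 1 library per group (left, libraries numbered 1; right, the others), with the log2 difference from PBS in the choosing libraries on the horizontal axis and in the other libraries on the vertical axis; squares are I80 and triangles DI150, and the dotted line marks equality. Most marks keep their side of 0, and 79 of 88 genes on the left and 78 of 90 on the right do so for both lines.

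The members were spread over 19 of the 20 chromosomes with tested genes. Chromosomes 3, 4 and 10 held 31 of the 93 (33.3%), with 16% of the tested genes. All 9 on chromosome 3 and all 5 on chromosome 18 were lower in I80, while 7 of 8 on chromosome 2 were higher in I80. Chromosome 16 held none, with 371 tested genes. Median log2 differences over all tested genes were 0.10 in I80 and 0.38 in DI150 on chromosome 3 and 0.43 and 0.19 on chromosome 2, and their part in these counts was not tested. Within 500 kb of each other were 6 pairs of neighbours, with the same direction in all 6: Aatk and Bahcc1, 4930486L24Rik and Ctla2b, Ctla2b and Ctla2a, Hspb11 and Ndc1, Camta1 and Tas1r1, and Mgp and Arhgdib. The flanks of each member were also read, as the median over the 10 nearest tested genes on each side that are not members. These medians passed 0.5 in the member's direction for 12 members in I80 and 14 in DI150, and for 0 members in both lines with opposite signs. A median says nothing of single neighbours.

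**Figure D4:**
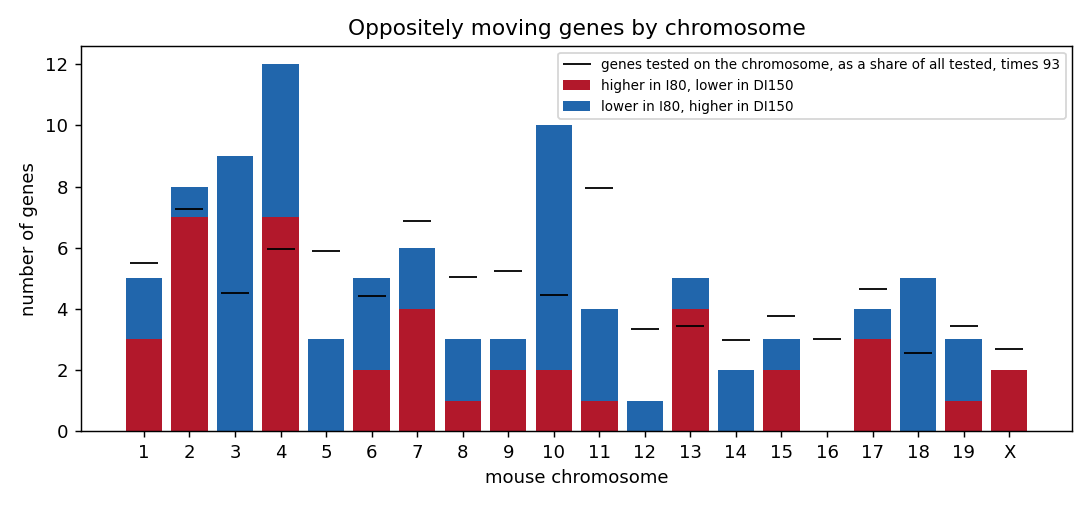
Number of members on each chromosome (bars, red higher in I80 and blue lower in I80), with a black mark at the share of all tested genes on that chromosome times 93. The bars of chromosomes 3, 4 and 10, with 9, 12 and 10 members, stand above their marks.

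Beyond the sequences shown, RefSeq promoters (250 bases before to 50 after the start) were found for 67 members, 91 in all, and for 9137 tested genes, 11681 in all. The median number of CpG dinucleotides was 12 in the members' promoters and 21 in those of tested genes, at 7 for members higher in I80 and 16 for those lower. TGANTCA was in 6 of the 40 promoters of genes higher in I80 (15%) and in 1 of the 51 of genes lower in I80 (1.96%), against 5.05% of tested promoters. Of those 6, 3 are the Ctla2b promoter and the overlapping pair of Ctla2a promoters, which share the run shown above. By gene, that is 5 of 32 (15.6%) and 1 of 35 (2.86%), against 6.1% of tested genes. TGACNNNGC was in 17.6% of the members' promoters and 14.4% of tested ones, CACGTG in 7.69% and 10%, CCAAT in 33% and 37.8%, and TATAAA in 8.79% and 6.65%. Both strands were searched, and TGACNNNGC and TGANTCA can overlap. Of the 70 gene lists 28 held a member and 7 held 2 or more, and 36 of the 93 (38.7%) were on a list, against 21.7% of tested genes. The lists were chosen with earlier results of these data known, so nothing is read from this difference. Lists also overlap, and Cd63 and Tspan5 are on more than 1.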

How the data were processed

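Total RNA of 6 libraries (2 each of PBS, I80 and DI150) was depleted of ribosomal RNA and sequenced as single 81-base reads, per the labels' protocols. STAR and mm10 are named without versions in the submitters' processing notes; for the counter, annotation and strand setting, nothing is given in the sources used here. CPM per gene number were deposited by the authors. All 146724 values (100.0%) were whole multiples of 1 read within 1e-06. Gene numbers were named from the RefSeq table of GRCm38.p6 (24374 of 24454 matched). DI150 replicate 3 entered as a DI150 library by its column name.

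Genes averaging 1 CPM or more over the 6 libraries were tested with limma 3.58.1 (R 4.3.3) on log2(CPM + 0.5), all groups in 1 fit, with Benjamini-Hochberg adjustment at 0.05; fold sizes of low genes are understated on this scale. Labels speak of biological duplicates without naming separate cultures, so calls measure the spread between these libraries. On recovered reads, edgeR 4.0.16 called 7610 genes for I80 against PBS, 7852 for DI150 against PBS and 4997 between the treated lines; DESeq2 1.42.0 was a further alternative. Statistics were tested on simulated data. Named genes were the 15 of each direction with the largest smaller difference at 5 CPM or more, the 3 with most CPM (not length-corrected), those nearest the limit, members of gene lists and, where stated, genes chosen after their values were seen. The values of 1 member are not reported here, although it stays in the counts. The members and lists were chosen with earlier results of these data known. Intervals cover counting error only.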

Additional observations from a re-analysis of the deposited data

How the results depend on the processing

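The number of genes meeting the rule was 93 and ranged from 82 to 94 when 1 library was left out. Of the 93, 40 met the rule in all 15 settings tried per gene, 87 kept opposite signs in all, and 49 met it without each library in turn (20 higher and 29 lower in I80). The block with DI150 replicate 3 as the second sample is among the 15 and could not change any difference. With a pseudocount of 1, 74 of the 93 still met it, and with quantile normalization 65, of which 2 no longer had opposite signs. At a minimum of 5 CPM, 33 genes were lower in I80 and higher in DI150. With both differences above 1, 20 genes remained, 7 and 13 by direction.

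For DI150 against I80 over all tested genes, limma called 5008. Leaving out 1 library moved this from 2487 to 5972: 2541 without I80 replicate 1, 2487 without I80 replicate 2, 3012 without DI150 replicate 1 and 3209 without DI150 replicate 3. In those fits the lone library is assumed to vary like the other groups. A fit with the replicate block, which shares the replicate number only, called 2688, and under it 82 of the 93 met the rule. The first minus the second library of each group, with DI150 replicate 3 as the second, was compared between groups across genes. These differences correlated at r of 0.023 (PBS and I80), -0.055 (PBS and DI150) and 0.213 (I80 and DI150), and no pairing was assumed. With DI150 replicate 3 as the second sample, a setting chosen after seeing the data, the block is balanced over the groups. Such a block cannot change a difference between groups, so the 93 that met the rule there were fixed in advance and show nothing. Depth limits the genes near 1 CPM, where 1 read is worth up to 0.0476 CPM.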

Other observations

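Below the minimum of 1 CPM, 9 more genes had opposite differences above 0.5, and 8 of them were higher in I80. Radx, a regulator of replication forks, read 0.150 and 0.364 CPM (PBS), 2.46 and 2.43 CPM (I80) and 0 in both DI150 libraries. Fam20a, a pseudokinase of the secretory pathway, read 0.188 and 0.485 CPM (PBS), 2.65 and 2.02 CPM (I80) and 0.0476 and 0.0382 CPM (DI150). Edn2, the endothelin-2 gene and a relative of the member Edn1, read 0.451 and 0.728 CPM (PBS), 1.05 and 1.896 CPM (I80) and 0 and 0.153 CPM (DI150). The exception was Sema4g, a membrane semaphorin, at 0.639 and 0.930 CPM (PBS), 0.156 and 0.0412 CPM (I80) and 1.81 and 1.95 CPM (DI150). These genes were chosen after their values were seen, and no test was made.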
